A study of Homo sapiens with 16 samples.

Results

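The 10 genes of the BCL2 family followed here, taken by symbol, were measured in RNA sequencing libraries of 2 human cancer cell lines, out of 58676 gene identifiers counted. They are the anti-apoptotic genes BCL2, BCL2L1, BCL2L2, MCL1 and BCL2A1, the BH3-only genes BCL2L11, BID, BAD and BMF, and the effector gene BAK1. The family members that are best known as targets of p53 are not among them. A549 is a lung cancer line and SUM159 a triple-negative breast cancer line. Each line was left untreated (UT) or was given 2 µM palbociclib (PD), 3 µM indisulam (IN) or both drugs (P+I) for 16 h, with 2 libraries in each of the 8 groups. No gene was deleted and no transgene was introduced in any group. Palbociclib inhibits CDK4 and CDK6, the kinases that start the passage from G1 into S phase. Indisulam is a molecular glue that hands the splicing factor RBM39 to the DCAF15 ubiquitin ligase. The culture medium differed between the lines (RPMI for A549, DMEM/F12 with insulin and hydrocortisone for SUM159), so an effect of the line and an effect of its medium cannot be told apart.

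BCL2 family proteins decide at the outer membrane of the mitochondrion whether a cell commits to apoptosis. The anti-apoptotic proteins hold the effectors BAX and BAK in check, and BH3-only proteins bind into their groove and release the effectors, so the balance of the groups sets how close a cell is to death. Drugs called BH3 mimetics fill the same groove. The study used one of them, navitoclax, which binds BCL-2, BCL-XL and BCL-W (from BCL2, BCL2L1 and BCL2L2) and spares MCL-1, to kill cells that had become senescent. The cells killed there had been treated for far longer than 16 h. When the drugs were paired, the indisulam dose differed from the one here in both lines, and the palbociclib dose differed in SUM159. No library here is from cells treated that way. The question addressed here is how the transcripts of the navitoclax targets, of MCL1 and of the BH3-only genes stood in each group.

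Total gene counts ran from 18306636 to 34075588 per library, and 3 counts, taken as the limit of detection, lay between 0.0880 and 0.164 CPM (counts scaled to library size), which covers counting error only. The series calls the duplicates technical and no label names separate cultures, so all p-values measure the spread between these samples, and each SD given is over n = 2. Markers of the lines were partly as their origin would have them. Untreated A549 held the epithelial transcripts EPCAM (26.2 and 24.4 CPM) and CDH1 (79.0 and 80.7 CPM), but the lung lineage markers NKX2-1, SFTPB and SFTPC were at or below 3 counts. SUM159 held VIM (4144 and 3966 CPM), with EPCAM and CDH1 under 0.5 CPM. The log2 differences of untreated SUM159 from untreated A549 were 2.00 for VIM, 1.99 for CDH2, 2.46 for FN1 and 0.72 for ZEB1. Those of the keratin genes were -3.19 for KRT8, -3.58 for KRT18 and -8.77 for KRT19. KRT18 had a mean of at least 5 CPM in both lines, so the markers were not all confined to 1 line. Of the hormone receptor genes, PGR was at 0 in untreated SUM159 and ESR1 had 8 and 9 counts (0.386 and 0.431 CPM). Of 4 blood and endothelial markers, CD3E and CDH5 were at or below 3 counts in untreated SUM159, but PTPRC had 83 and 87 counts and PECAM1 stood at 19.5 and 17.4 CPM, and both were higher than in untreated A549, where PTPRC had 0 counts. Their part in the results was not tested. Because the bulk libraries average over cells, fewer cells with a transcript and less of it per cell cannot be told apart.

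In untreated cells the family was carried by 2 anti-apoptotic transcripts. Levels of different genes were compared as RPKM, that is CPM divided by the kilobases of exon, on a scaling common to all 16 libraries. In A549, BCL2L1, which encodes BCL-XL, stood at 43.5 and 42.0 RPKM and MCL1 at 42.4 and 42.2 RPKM, and these 2 ranges overlapped. In SUM159, MCL1 was first at 91.9 and 92.3 RPKM, above BCL2L1 at 57.9 RPKM in both libraries. With the union of exons as length, no other neighbouring genes of either line overlapped, but some changed places under the length of the longest transcript. The order in A549 went on with BAD (15.2 ± 2.49 RPKM, SD), BAK1 (10.8 ± 0.0330), BID (8.82 ± 0.405), BCL2L2 (6.53 ± 0.473), BCL2L11 (1.95 ± 0.0892), BCL2 (0.163 ± 0.00859) and BMF (0.0464 ± 0.0101). In SUM159 it went on with BAK1 (24.4 ± 0.932 RPKM, SD), BAD (13.7 ± 0.288), BID (12.9 ± 0.132), BCL2L2 (7.29 ± 0.242), BCL2L11 (0.777 ± 0.00440), BCL2 (0.653 ± 0.0175) and BMF (0.591 ± 0.000270). BCL2, the gene that named the family, was thus near the bottom of the order in both lines.

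BCL2A1 (ENSG00000140379, chromosome 15, 79960892 to 79971196), which encodes the anti-apoptotic BFL-1, had 0 counts in all 8 A549 libraries. In SUM159 it had 2 and 1 counts with palbociclib, 1 and 2 with the combination and 0 in the other 4 libraries. No library passed the limit of 3 counts, so no fold change is given, and BCL2A1 was removed by the filter on low counts in both lines. The other 9 genes were tested. BMF in A549, with 4 and 5 counts in untreated cells and 3 and 7 with palbociclib, passed the filter through the groups given indisulam.

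**Figure D1:**
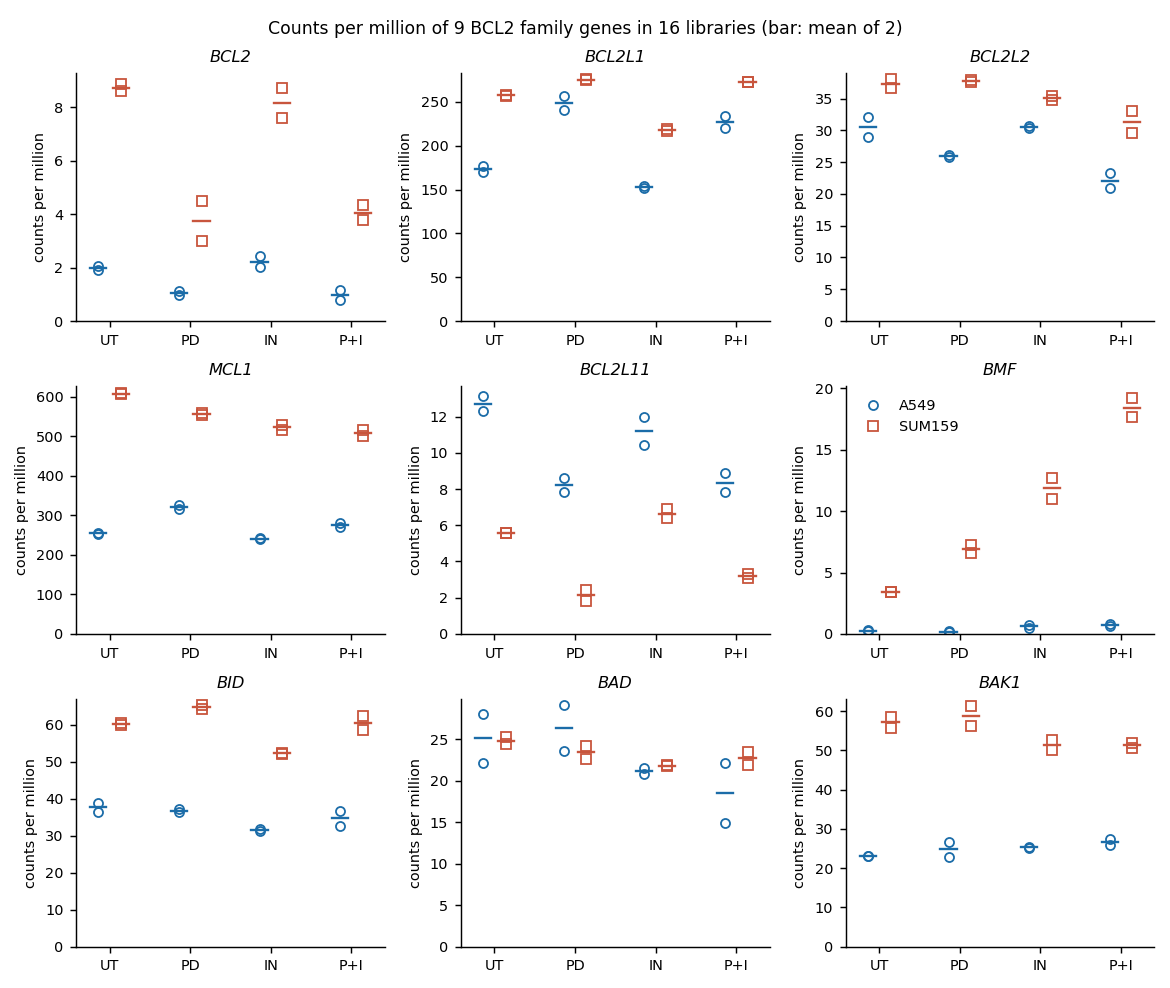
CPM (linear axes from 0) of the 9 tested genes in each library of A549 (circles) and SUM159 (squares), scaled within each line, with the mean of the 2 libraries as a bar. BCL2 and BCL2L11 are lower with palbociclib and with the combination than in untreated cells of both lines, and BMF in SUM159 goes from 3.42 and 3.40 CPM to 19.2 and 17.7 CPM.

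Between the untreated lines, 8 of the 9 tested genes passed an adjusted p of 0.05 in edgeR's quasi-likelihood test, against 76.3% of all genes tested, so the lines differed as much in most of their genes. Of the 8, 7 were higher in SUM159, where 38.3% of all genes were higher and 38.0% lower. BMF, a BH3-only gene, differed most, at 12.6-fold (log2 difference 3.66, SE 0.33), followed by BCL2 at 3.99-fold (1.99, SE 0.19), BAK1 at 2.25-fold (1.17, SE 0.071) and MCL1 at 2.18-fold (1.12, SE 0.037). BID was 1.46-fold and BCL2L1 1.36-fold higher. BCL2L11, which encodes the BH3-only protein BIM, was the exception and was 2.51-fold lower in SUM159 (log2 difference -1.33, SE 0.12). BCL2L2 was 1.11-fold higher (edgeR adjusted p 0.0464) and lost this call in 8 of 21 other fits, among them DESeq2 (adjusted p 0.108) and the fit without SUM159 untreated replicate 2 (log2 difference 0.13, adjusted p 0.205), while without A549 untreated replicate 1 the difference was 0.33. Alternatives counted in this way are fits with another setting or without 1 library, and stricter thresholds are not among them. BAD did not pass the threshold (-0.15, 95% interval -0.41 to 0.11).

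Each treatment changed several of the genes, in both directions. In A549, palbociclib changed 5 of the 9 tested genes (2 higher, 3 lower) where 43.2% of all genes passed the same threshold. Indisulam changed 3 (BMF higher, 2 lower) against 49.2% of all genes, and the combination 8 (4 higher, 4 lower) against 57.8%. In SUM159, palbociclib changed 5 (2 higher, 3 lower) against 54.5%, indisulam 6 (1 higher, 5 lower) against 46.9% and the combination 7 (2 higher, 5 lower) against 65.3%. The share of the 9 genes called was above that of all genes in 5 of these 6 comparisons and below it with indisulam in A549. With palbociclib in SUM159 the 2 shares were close, at 55.6% and 54.5%, and without BMF 4 of 8 genes passed there. No test compared these shares, and the comparisons of a line share their untreated libraries. In A549, BMF passed the filter where it was high, and without it indisulam changed 2 and the combination 7 of 8 genes. The median log2 change of the 9 genes lay between -0.16 and 0.01 over these 6 comparisons, and that of all genes between 0.00 and 0.03.

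**Figure D2:**
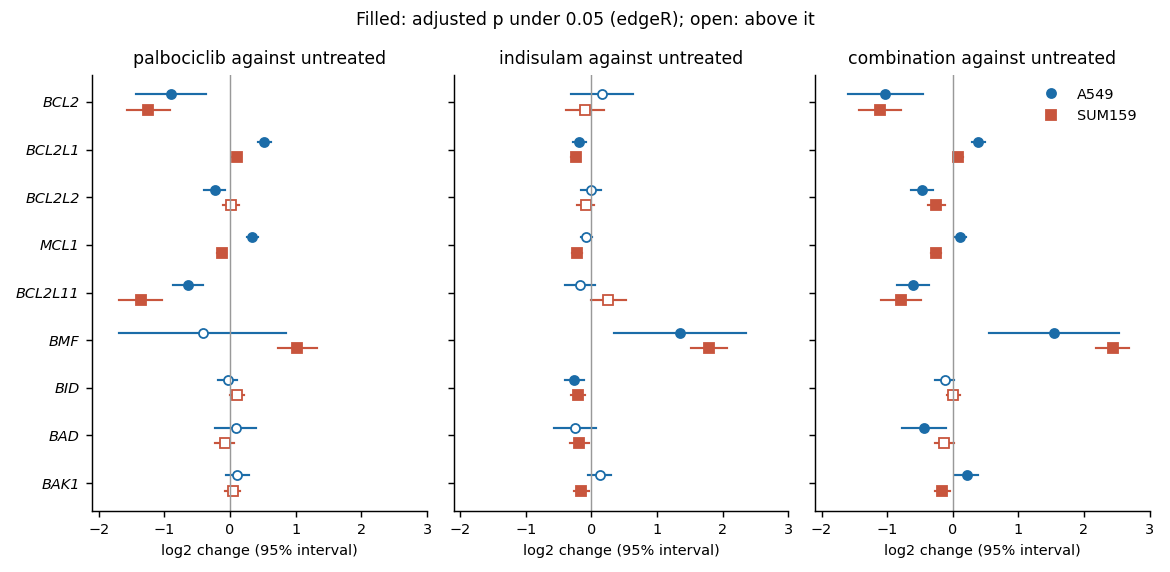
Log2 changes against untreated cells with their 95% intervals, for A549 (circles) and SUM159 (squares), from edgeR within each line; filled symbols passed an adjusted p of 0.05. With palbociclib BCL2 and BCL2L11 lie left of 0 in both lines, and BMF lies furthest right with indisulam and with the combination.

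BCL2L1 (ENSG00000171552, chromosome 20, 31664452 to 31723989) rose with palbociclib in both lines. Coordinates are those of GENCODE 44 on GRCh38. In A549 its transcript stood at 177 and 170 CPM in UT, 241 and 257 CPM in PD, 151 and 154 CPM in IN and 234 and 220 CPM in P+I. The 2 groups with palbociclib lay above both groups without it, and the 4 groups did not overlap. The log2 change was 0.52 for palbociclib (SE 0.046, edgeR adjusted p 4.14e-07), and for the combination it was 0.39 (SE 0.046, adjusted p 4.78e-06). With indisulam BCL2L1 fell by 0.19 (adjusted p 0.00457), a call lost without untreated replicate 1 (adjusted p 0.0602) or without indisulam replicate 1 (adjusted p 0.0508).

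In SUM159 the same gene stood at 258 and 257 CPM in UT, 277 and 275 CPM in PD, 219 and 217 CPM in IN and 273 and 273 CPM in P+I. The order of the groups was as in A549, with smaller steps. BCL2L1 had a log2 change of 0.10 with palbociclib (SE 0.034, edgeR adjusted p 0.0206) and of 0.08 with the combination (SE 0.034, adjusted p 0.0363), and it fell by 0.24 on the log2 scale with indisulam (SE 0.034, adjusted p 1.96e-05). Both rises were larger with total counts (0.20 and 0.23) and in the fit of all 16 libraries (0.17 and 0.16). The palbociclib call was lost without either untreated library (adjusted p 0.0571 and 0.104) and with DESeq2 (0.0609). The combination call was lost in 9 of 17 alternatives (adjusted p up to 0.216), the removal of any 1 untreated, indisulam or combination library among them. An exon overlap with ABALON on the other strand covers 41.3% of the BCL2L1 exons, and the strand setting of the count is not given in the sources used here.

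MCL1 (ENSG00000143384, chromosome 1, 150560895 to 150579738), whose short-lived protein is the main anti-apoptotic family member outside the reach of navitoclax, rose with palbociclib in A549 and fell with every treatment in SUM159. In A549 it stood at 255 and 254 CPM in UT, 317 and 326 CPM in PD, 239 and 243 CPM in IN and 280 and 270 CPM in P+I. In SUM159 it stood at 608 and 606 CPM, 557 and 552 CPM, 528 and 515 CPM, and 500 and 514 CPM in the same order. Untreated SUM159 libraries were thus the highest of their line, whereas untreated A549 libraries lay below both groups given palbociclib.

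In A549, MCL1 had a log2 change of 0.34 with palbociclib (SE 0.039, edgeR adjusted p 6.94e-06), of -0.08 with indisulam (adjusted p 0.113) and of 0.11 with the combination (adjusted p 0.0248). The last call was lost without either untreated library (adjusted p 0.0809 and 0.101), without combination replicate 1 (0.09, adjusted p 0.154), with DESeq2 and with no filter, and total counts gave 0.20. In SUM159, MCL1 fell by 0.22 with indisulam (SE 0.034, adjusted p 5.26e-05) and fell by 0.26 with the combination (SE 0.034, adjusted p 3.53e-06), where total counts gave -0.11 (adjusted p 0.00789). It fell by 0.13 with palbociclib (adjusted p 0.00361), a call lost with total counts (-0.02, adjusted p 0.557), in the fit of all 16 libraries (-0.05, adjusted p 0.219) and with a filter at a mean of 1 CPM (-0.08, adjusted p 0.0568). Gene counts do not separate the long and short splice forms of MCL1 and BCL2L1, and 5.27% of the MCL1 exons overlap ADAMTSL4-AS1 on the same strand.

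BCL2 (ENSG00000171791, chromosome 18, 63123346 to 63320128) was low in both lines and fell with palbociclib. In A549 it had 2.07 and 1.92 CPM in UT (40 and 34 counts), 0.956 and 1.13 CPM in PD, 2.44 and 2.01 CPM in IN and 1.15 and 0.797 CPM in P+I. In SUM159 it had 8.59 and 8.86 CPM, 4.50 and 3.01 CPM, 8.70 and 7.59 CPM, and 3.77 and 4.34 CPM in the same order. In each line both groups given palbociclib lay below both groups without it. The log2 changes with palbociclib were -0.90 in A549 (SE 0.25, edgeR adjusted p 0.00914) and -1.24 in SUM159 (SE 0.15, adjusted p 2.94e-06). With the combination BCL2 had -1.03 (SE 0.27, adjusted p 0.00436) and -1.11 (SE 0.15, adjusted p 6.35e-06). With indisulam it did not pass in A549 (0.16, 95% interval -0.32 to 0.64) or in SUM159 (-0.10, interval -0.39 to 0.19). The palbociclib call in A549 was lost without untreated replicate 1 (-0.85, adjusted p 0.0658) and with DESeq2 (adjusted p 0.0804).

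BCL2L2 (ENSG00000129473, chromosome 14, 23298790 to 23311751), which encodes BCL-W, fell with the combination in both lines. In A549 it had 32.1 and 29.0 CPM in UT, 25.8 and 26.2 CPM in PD, 30.3 and 30.7 CPM in IN and 20.9 and 23.3 CPM in P+I. In SUM159 it had 36.6 and 38.1 CPM, 37.5 and 37.8 CPM, 34.8 and 35.4 CPM, and 33.0 and 29.6 CPM in the same order. The combination libraries were the lowest of each line. BCL2L2 fell by 0.47 with the combination in A549 (SE 0.076, edgeR adjusted p 1e-04) and fell by 0.25 in SUM159 (SE 0.061, adjusted p 0.00173), where total-count scaling gave -0.10 (adjusted p 0.157). With palbociclib it fell by 0.24 in A549 (adjusted p 0.0176), a call lost without untreated replicate 1 (-0.16, adjusted p 0.192), without either palbociclib library (adjusted p 0.0614 and 0.0641), with total counts and with DESeq2. In SUM159 palbociclib gave 0.01 (95% interval -0.11 to 0.14), and indisulam gave -0.0039 in A549 (interval -0.16 to 0.15) and -0.09 in SUM159 (interval -0.22 to 0.04). The read-through gene BCL2L2-PABPN1 shares 16.8% of the BCL2L2 exons on the same strand, so its reads cannot be told apart there.

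Because a ratio of 2 genes within a library does not depend on the scaling, MCL1 was also set against BCL2L1. In A549 the ratio of their RPKM was 0.975 and 1.01 in UT, 0.887 and 0.856 in PD, 1.07 and 1.07 in IN and 0.807 and 0.826 in P+I. In SUM159 it was 1.59 and 1.59, 1.36 and 1.36, 1.63 and 1.60, and 1.24 and 1.27 in the same order. The order of the 4 groups was the same in both lines, with the combination lowest and indisulam highest, and no groups overlapped. With 2 libraries against 2, a two-sided exact permutation test cannot give a p under 0.333, so these ratios are a description.

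Each gene was also taken as a share of the summed RPKM of the 5 anti-apoptotic genes. There BCL2L1 gained and MCL1 lost in both lines, with palbociclib alone as well as with the combination. BCL2L1 made up 46.8% and 46.4% in untreated A549, 50.5% and 51.4% with palbociclib and 53.02% and 52.1% with the combination. In SUM159 it made up 36.8% and 36.6%, 40.3% and 40.3%, and 42.6% and 42.2% in the same order. MCL1 went from 45.6% and 46.6% to 42.8% and 43.1% in A549 and from 58.3% and 58.3% to 52.7% and 53.6% in SUM159. The genes of the 3 navitoclax targets together went from 54.4% and 53.4% to 55.2% and 56.0% (palbociclib) and 57.2% and 57.0% (combination) in A549. In SUM159 they went from 41.7% in both libraries to 45.2% and 45.3%, and 47.3% and 46.4%. In SUM159 the share of MCL1 with indisulam (58.6% and 58.1%) overlapped that of untreated cells, and BCL2L2, at 4.52% and 4.71% in UT, held 4.74% and 4.82% in PD and 4.47% and 3.96% in P+I. BCL2 itself held under 0.5% in every library. These are shares of RNA, after 16 h in the treated groups, and no protein was measured in these libraries.

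**Figure D3:**
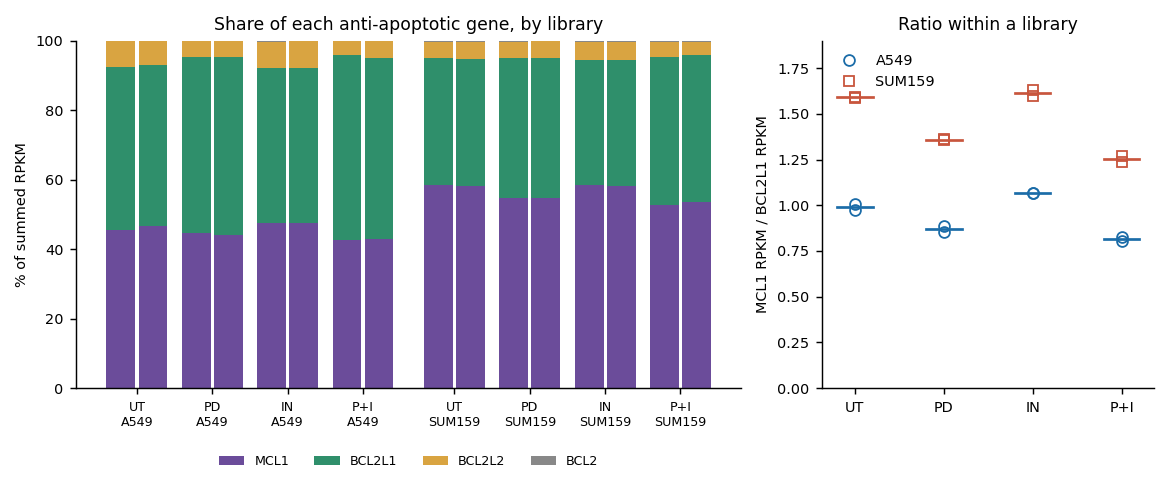
Left, the share of MCL1, BCL2L1, BCL2L2 and BCL2 in the summed RPKM of the anti-apoptotic genes, 1 bar per library (BCL2, under 0.5%, is too thin to see, and BCL2A1 is left out). Right, MCL1 RPKM divided by BCL2L1 RPKM in each library with the mean as a line; in both lines the combination is lowest, from 0.807 in A549 and from 1.24 in SUM159.

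BCL2L11 and BMF moved most of the 4 BH3-only genes followed here. These 2 are shown together because palbociclib moved them in opposite directions in SUM159. BIM binds all anti-apoptotic members and can activate the effectors directly, and both BIM and BMF are tied to the cytoskeleton in healthy cells. Forkhead (FOXO) factors are known activators of BCL2L11. The 250 bases before the start site of each gene are shown on the strand of the gene, from the RefSeq promoter table (GRCh38.p14), at chr2:111120664-111120913 (+) for BCL2L11 and at chr15:40108880-40109129 (-) for BMF, the first of the 2 starts listed for it. Capitals mark the forkhead core GTAAACA in the first and TTGGCGC, 1 of 3 spellings searched for the E2F core, in the second.
BCL2L11: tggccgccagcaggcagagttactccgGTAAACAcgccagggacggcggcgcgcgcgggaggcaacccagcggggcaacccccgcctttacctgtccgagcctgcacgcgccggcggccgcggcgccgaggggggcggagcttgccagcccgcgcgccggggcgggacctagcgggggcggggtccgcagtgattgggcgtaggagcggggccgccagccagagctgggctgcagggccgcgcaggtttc
BMF: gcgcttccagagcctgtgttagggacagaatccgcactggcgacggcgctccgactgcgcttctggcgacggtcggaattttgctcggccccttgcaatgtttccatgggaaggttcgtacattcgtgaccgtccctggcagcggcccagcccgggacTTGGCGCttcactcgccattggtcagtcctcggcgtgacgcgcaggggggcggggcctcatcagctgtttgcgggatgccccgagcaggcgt
Both matches lie on the strand of the gene, 223 bases before the start of BCL2L11 and 92 bases before that of BMF. GTAAACA was found, on either strand, in 2.98% of 35116 windows of this length, and the E2F core in 9.32%. Its spellings were TTCGCGC first, then TTGGCGC as shown, and last TTCCCGC. Of the 10 genes 8 had windows in the table, 15 in all, and no other window of theirs held either motif, the second BMF window included. A match describes the letters only, and binding was not measured.

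BCL2L11 (ENSG00000153094, chromosome 2, 111119378 to 111168444) fell with palbociclib in both lines. In A549 it had 13.1 and 12.3 CPM in UT, 8.61 and 7.83 CPM in PD, 11.98 and 10.4 CPM in IN and 7.82 and 8.86 CPM in P+I. In SUM159 it had 5.55 and 5.56 CPM, 1.84 and 2.42 CPM, 6.38 and 6.88 CPM, and 3.31 and 3.08 CPM in the same order. In both lines the groups given palbociclib lay below the groups without it. BCL2L11 fell by 0.64 with palbociclib in A549 (SE 0.11, edgeR adjusted p 0.000281) and fell by 1.36 in SUM159 (SE 0.16, adjusted p 1.11e-06). With the combination it fell by 0.61 (adjusted p 0.000334) and fell by 0.79 (adjusted p 0.000133). Indisulam alone gave -0.18 in A549 (95% interval -0.41 to 0.05) and 0.26 in SUM159 (interval -0.01 to 0.53), neither past the threshold. On the other strand MIR4435-2HG overlaps 10.8% of the BCL2L11 exons.

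BMF (ENSG00000104081, chromosome 15, 40087890 to 40108892) rose with each treatment in SUM159. There it had 3.42 and 3.40 CPM in UT (71 counts in each), 6.60 and 7.22 CPM in PD, 12.7 and 10.99 CPM in IN and 19.2 and 17.7 CPM in P+I. The 4 groups did not overlap. The log2 changes were 1.02 (SE 0.14, edgeR adjusted p 8.19e-06), 1.79 (SE 0.13, adjusted p 9.16e-09) and 2.44 (SE 0.12, adjusted p 1e-11), the last a 5.41-fold rise and the largest of the 54 changes of these genes against untreated cells. PECAM1 rose in the same libraries by 0.33, 0.67 and 1.04 (edgeR adjusted p 0.00156, 2.15e-06 and 1.53e-09), PTPRC passed in none of the 3, CD3E stayed at or below 3 counts and CDH5 did so in all but the palbociclib group. The summed level of these 4 blood and endothelial markers was 23.6 and 21.6 CPM in UT, 27.2 and 28.4 CPM in PD, 33.97 and 31.6 CPM in IN and 40.4 and 42.7 CPM in P+I, and their part in the change of BMF was not tested.

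In A549, BMF was near the limit of detection, with 4 and 5 counts in UT, 3 and 7 in PD, 12 and 17 in IN and 14 and 17 in P+I. Because it passed the filter through the groups given indisulam, where it was high, its changes in A549 are a description and no support for a rise there. The log2 changes of BMF were 1.35 with indisulam (SE 0.47, edgeR adjusted p 0.0277) and 1.55 with the combination (SE 0.46, adjusted p 0.0102), and -0.42 with palbociclib (95% interval -1.69 to 0.86). The indisulam call was lost without either untreated library (adjusted p 0.167 and 0.0715), without indisulam replicate 2 (adjusted p 0.177) and with DESeq2 (0.215). The combination call was lost without untreated replicate 1 (adjusted p 0.0873), without combination replicate 2 (0.0652) and with DESeq2 (0.126). BMF-AS1 overlaps 8.46% of the BMF exons on the other strand.

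The ratio of BMF to BCL2L11, in RPKM, showed the 2 changes together. In SUM159 it was 0.764 and 0.758 in UT, 4.44 and 3.70 in PD, 2.47 and 1.98 in IN and 7.20 and 7.09 in P+I. Within SUM159, BCL2L11 was the higher of the pair in untreated libraries alone. In A549 it was 0.0195 and 0.0284 in UT, 0.0206 and 0.0321 in PD, 0.053 and 0.088 in IN and 0.102 and 0.111 in P+I, on counts of 17 or fewer for BMF. There BCL2L11 was the higher of the pair in all 8 libraries, and the 2 groups given indisulam lay above the other 2.

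Of the 4 BH3-only genes followed here, BID and BAD had the most abundant transcripts in every library, and both fell with indisulam in SUM159. BID (ENSG00000015475, chromosome 22, 17734138 to 17774770), which links death receptors to mitochondria once caspase 8 has cut it, went in A549 from 39.0 and 36.5 CPM to 31.8 and 31.3 CPM with indisulam and in SUM159 from 60.0 and 60.5 CPM to 52.5 and 52.2 CPM. BID fell by 0.26 (SE 0.068, edgeR adjusted p 0.0056) and fell by 0.20 (SE 0.049, adjusted p 0.0026). In A549 the call was lost without untreated replicate 1 (adjusted p 0.0796) or indisulam replicate 2 (adjusted p 0.0514). For BID palbociclib gave -0.04 in A549 and 0.10 in SUM159, while the combination gave -0.12 and 0.0049, none past the threshold. With total counts BID passed in SUM159, with palbociclib at 0.21 (adjusted p 0.00117) and after both drugs at 0.15 (adjusted p 0.00944).

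BAD (ENSG00000002330, chromosome 11, 64269830 to 64284704), whose protein is held inactive by survival kinases, spread widely between A549 duplicates. It had 28.0 and 22.2 CPM in UT, 23.6 and 29.1 CPM in PD, 20.8 and 21.5 CPM in IN and 22.2 and 14.9 CPM in P+I. BAD fell by 0.44 with the combination (SE 0.16, edgeR adjusted p 0.0255), a call lost without combination replicate 2 (-0.19, adjusted p 0.194) or untreated replicate 1 (-0.25, adjusted p 0.287), while without combination replicate 1 the value was -0.75. Palbociclib gave 0.08 for BAD in A549 (95% interval -0.23 to 0.39) and indisulam -0.25 (interval -0.57 to 0.07), the second passing in 4 of 17 alternatives. In SUM159 all 8 libraries lay between 21.7 and 25.3 CPM, and BAD fell by 0.19 with indisulam (adjusted p 0.0325), a call lost without any 1 of the 4 libraries compared (adjusted p 0.0661 to 0.177). BAD did not pass there with palbociclib (-0.08, interval -0.22 to 0.06) or with the combination (-0.13, interval -0.27 to 0.01). GPR137 overlaps 23.7% of the BAD exons on the other strand.

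BAK1 (ENSG00000030110, chromosome 6, 33572547 to 33580293), the effector that forms pores in the mitochondrial membrane, was higher with the combination in A549 and lower in SUM159. In A549 it had 23.2 CPM in both untreated libraries, 23.0 and 26.7 CPM with palbociclib, 25.5 and 25.1 CPM with indisulam and 26.0 and 27.6 CPM with the combination. In SUM159 it had 55.8 and 58.5 CPM, 61.2 and 56.3 CPM, 50.1 and 52.7 CPM, and 50.7 and 51.9 CPM in the same order. With the combination BAK1 rose by 0.21 in A549 (SE 0.081, edgeR adjusted p 0.0392), whereas in SUM159 the log2 change was -0.16 (SE 0.054, adjusted p 0.0177) and with indisulam -0.15 (adjusted p 0.031). Each of these 3 calls was lost in at least 5 of 17 alternatives, among them the removal of SUM159 untreated replicate 2 (adjusted p 0.127 and 0.198) and of A549 combination replicate 2 (adjusted p 0.172). With total counts the combination in SUM159 gave -0.0089 (adjusted p 0.899) and indisulam -0.10 (adjusted p 0.163). BAK1 did not pass in A549 with palbociclib (0.11, 95% interval -0.06 to 0.28) or indisulam (0.13, interval -0.05 to 0.30), or in SUM159 with palbociclib (0.04, interval -0.08 to 0.15).

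**Figure D4:**
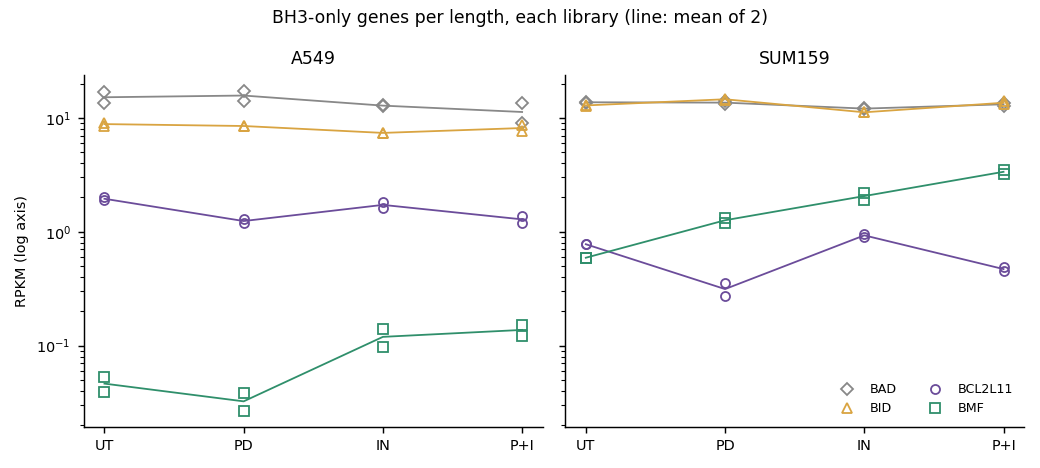
RPKM (log axis) of the 4 BH3-only genes in each library of A549 (left) and SUM159 (right), with lines through the means of 2. BAD and BID lie above the other pair in every library, BCL2L11 dips with palbociclib and the combination, and BMF in SUM159 passes from 0.591 to 3.36 RPKM.

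The combination was then compared with each single drug, to see what the second drug added. Against palbociclib, 5 of the 9 genes passed in A549 (BMF higher, 4 lower) where 51.5% of all genes did, and 5 in SUM159 (2 higher, 3 lower) where 48.3% did. BMF rose by 1.41 in SUM159 (SE 0.093, edgeR adjusted p 3.03e-09), and in A549, where the filter chose it, its log2 change was 1.96 (SE 0.44, adjusted p 0.00187). MCL1 fell by 0.23 in A549 (SE 0.038, adjusted p 0.000196) and fell by 0.13 in SUM159 (SE 0.034, adjusted p 0.00435; 0.055 without combination replicate 1). BCL2L2 fell by 0.23 in A549 and fell by 0.26 in SUM159 (adjusted p 0.0167 and 0.00122). The A549 value was lost without palbociclib replicate 2 (adjusted p 0.0918) or combination replicate 1 (-0.14, adjusted p 0.198).

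Other genes passed in 1 line of the comparison with palbociclib. In A549, BCL2L1 fell by 0.13 (edgeR adjusted p 0.0227) and BAD fell by 0.52 (adjusted p 0.00866). The BCL2L1 call was lost without palbociclib replicate 2 (-0.08, adjusted p 0.24) or combination replicate 2 (-0.08, adjusted p 0.21), and also without either indisulam library (adjusted p 0.0509 and 0.0507). That of BAD was lost without palbociclib replicate 2 (-0.34, adjusted p 0.167) or combination replicate 2 (-0.26, adjusted p 0.0682), and its value was -0.82 without combination replicate 1. In SUM159, BCL2L11 rose by 0.57 (SE 0.16, adjusted p 0.00835), lost without palbociclib replicate 1 (0.39, adjusted p 0.0919) or combination replicate 1 (0.51, adjusted p 0.0684), and BAK1 fell by 0.19 (SE 0.052, adjusted p 0.00531). The others did not pass. In A549 the log2 changes were -0.08 for BID, 0.10 for BAK1, 0.03 for BCL2L11 and -0.12 for BCL2. In SUM159 they were -0.05 for BAD, -0.10 for BID, -0.01 for BCL2L1 and 0.13 for BCL2.

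Against indisulam, 5 genes passed in A549 (2 higher, 3 lower) where 38.8% of all genes did, and 6 in SUM159 (3 higher, 3 lower) where 52.9% did. BCL2 fell by 1.19 in A549 (SE 0.25, edgeR adjusted p 0.00181) and fell by 1.01 in SUM159 (SE 0.15, adjusted p 2.11e-05). BCL2L1 rose by 0.58 (SE 0.046, adjusted p 1.84e-07) and by 0.32 (SE 0.034, adjusted p 3.58e-07). BCL2L11 fell by 0.43 in A549 (SE 0.11, adjusted p 0.00742) and fell by 1.05 in SUM159 (SE 0.13, adjusted p 4.21e-06), the first lost without indisulam replicate 1 (-0.33, adjusted p 0.0931) or combination replicate 1 (-0.32, adjusted p 0.0695).

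In the same comparison BCL2L2 fell by 0.47 in A549 (SE 0.074, edgeR adjusted p 0.000192) and fell by 0.16 in SUM159 (SE 0.06, adjusted p 0.0309), the second lost in 7 of 17 alternatives (-0.09 and adjusted p 0.281 without combination replicate 2, -0.07 with total counts) and at -0.25 without combination replicate 1. MCL1 rose by 0.19 in A549 (SE 0.039, adjusted p 0.00144) and had -0.04 in SUM159 (adjusted p 0.332). In SUM159, BMF rose by 0.65 (SE 0.086, adjusted p 7.41e-06) and BID by 0.21 (SE 0.047, adjusted p 0.00131). Not past the threshold were BAD (-0.19), BID (0.14), BAK1 (0.08) and BMF (0.20) in A549 and BAD (0.06) and BAK1 (-0.0054) in SUM159. These comparisons share libraries with those against untreated cells and are not independent of them.

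Whether the drugs together did more or less than the sum of their log2 changes was tested with the interaction of the drugs. None of the 9 genes passed in A549, where 3.53% of all genes did. At an unadjusted p under 0.05 there were 2, MCL1 and BCL2L2, and 0 passed with DESeq2 or limma-voom. Without combination replicate 1, BAD passed (adjusted p 0.0436). In SUM159, 1 gene passed where 4.38% of all genes did. It was BCL2L1, with a combined change 0.23 above the sum on the log2 scale (SE 0.047, edgeR adjusted p 0.0123), since the sum was -0.14 and the observed change 0.08. The call was lost with no filter and without 4 of the 8 libraries in turn, namely untreated replicate 1 (adjusted p 0.0556), either indisulam library (0.0583 and 0.0968) and combination replicate 2 (0.0594). Over all alternatives the value lay between 0.19 and 0.24. For BMF in SUM159 the observed 2.44 stood against a sum of 2.81 (difference -0.38, 95% interval -0.73 to -0.02, adjusted p 0.236). For the other genes the differences that did not pass lay between -0.28 (BCL2) and 0.61 (BMF) in A549 and between -0.17 (BCL2L2) and 0.31 (BCL2L11) in SUM159.

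**Figure D5:**
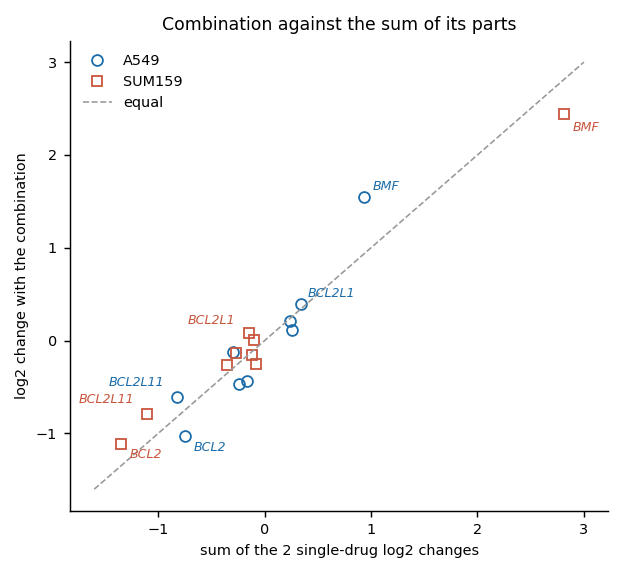
Log2 change with the combination against the sum of the log2 changes with each drug, for the 9 genes in A549 (circles) and SUM159 (squares), with a dashed line of equality. The points of BMF and BCL2 lie at the ends of the range, and the one called departure is BCL2L1 in SUM159, at a sum of -0.14 and an observed 0.08.

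The responses were compared between the lines with interaction terms in a fit of all 16 libraries, given as SUM159 minus A549. With palbociclib 4 of the 9 genes differed (1 higher, 3 lower) against 12.8% of all genes (9.65% higher, 3.15% lower). The median difference of all genes was 0.08. MCL1 differed by -0.37 (SE 0.051, edgeR adjusted p 1.85e-05) and BCL2L1 by -0.33 (SE 0.057, adjusted p 0.000303), and both passed in 21 of 21 other fits. Their sizes moved when single libraries of A549 were left out, to -0.57 for MCL1 and -0.55 for BCL2L1 without A549 palbociclib replicate 1. Leaving out a library also changes the scaling that all genes share, and its part in these moves was not tested. Neither MCL1 nor BCL2L1 reached a minimum log2 difference of 0.5 in the fit of all libraries. BCL2L11 differed by -0.62 (SE 0.19, adjusted p 0.0332), a call lost without either SUM159 untreated library (adjusted p 0.0785 and 0.0916), without SUM159 palbociclib replicate 1 (-0.46, adjusted p 0.174) and with DESeq2. BCL2L2 differed by 0.34 (adjusted p 0.0175), but the value ranged down to 0.09 without A549 untreated replicate 1. Its call was lost in 12 of the 21, the removal of any 1 A549 library among them. The A549 indisulam and combination libraries enter this difference only through the filter, scaling and spread that all libraries share. Without 1 of them it was 0.20 or 0.18 (indisulam) and 0.17 or 0.17 (combination). For BMF the difference was 1.54 (95% interval 0.20 to 2.87, adjusted p 0.132), so its rise with palbociclib in SUM159 was not shown to differ from A549. The others did not pass, with 0.24 for BID (adjusted p 0.0509), -0.07 for BAD, 0.02 for BAK1 and -0.24 for BCL2.

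With the combination 4 genes differed (1 higher, 3 lower) against 30.9% of all genes (19.1% higher, 11.8% lower). The median difference of all genes was 0.10. MCL1 differed by -0.30 (SE 0.052, edgeR adjusted p 7.08e-05) and BCL2L1 by -0.24 (SE 0.057, adjusted p 0.0024), and again both passed in 21 of 21 other fits but were under 0.5 in size. Without A549 combination replicate 2 they stood at -0.48 and -0.43. RLE scaling moved the median difference of all genes by -0.085, and DESeq2 moved it by -0.10. BAK1 differed by -0.30 (SE 0.099, adjusted p 0.0231), lost without SUM159 untreated replicate 2 (adjusted p 0.0878) or combination replicate 1 (adjusted p 0.0628), and at -0.48 without A549 combination replicate 1. BCL2L2 differed by 0.28 (adjusted p 0.0329) and was lost in 13 of 21 alternatives, with a lowest value of 0.05 (adjusted p 0.816 without A549 untreated replicate 1). The others did not pass, with 0.38 for BAD, 0.19 for BID, 0.95 for BMF, -0.12 for BCL2L11 and -0.02 for BCL2. With indisulam, where 2666 of the 17764 genes passed, the smallest adjusted p-values among the 9 were above the threshold, at 0.0611 for BAK1 (-0.28), 0.0714 for MCL1 (-0.14) and 0.08 for BCL2L11 (0.44). With DESeq2 MCL1 passed (-0.15, adjusted p 0.0443). The other differences were 0.06 for BAD, 0.06 for BID, 0.44 for BMF, -0.08 for BCL2L2, -0.05 for BCL2L1 and -0.26 for BCL2.

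Other genes of the apoptosis pathway were counted from 6 lists of 43 genes, of which 40 were tested in A549 and 38 in SUM159. With the combination 15 were higher, 13 lower and 12 not past the threshold in A549, where 27.4% of all genes were higher and 30.4% lower. In SUM159, 7 were higher, 24 lower and 7 not past it, where 32.2% of all genes were higher and 33.1% lower. With palbociclib the numbers were 7 higher and 10 lower in A549 (22.0% and 21.1% of all genes) and 4 higher and 17 lower in SUM159 (25.5% and 29.0%). With indisulam they were 11 higher and 9 lower in A549 (23.3% and 25.9% of all genes) and 6 higher and 18 lower in SUM159 (21.9% and 24.9%). In SUM159 lower calls thus outnumbered higher ones with each treatment, and still did with total-count scaling (11 higher and 17 lower with the combination). Lower calls also outnumbered higher ones among all genes there, by less.

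The gene named for each list is the one with the largest change with the combination among those called at a mean of at least 5 CPM in the line. By list, the inhibitor of apoptosis (IAP) genes had 0 higher and 3 lower of 6 in A549 with the combination, and 0 higher and 5 lower of 5 in SUM159. The IAP gene named is BIRC5, which encodes survivin and is transcribed in dividing cells. BIRC5 fell by 2.35 in A549 (SE 0.048, edgeR adjusted p 2.02e-14) and fell by 2.10 in SUM159 (SE 0.048, adjusted p 5.83e-16). The apoptosome and caspase list had 3 higher and 3 lower of 9 in A549 and 2 higher and 6 lower of 9 in SUM159. There CASP10, an initiator caspase, rose by 0.65 in A549 (adjusted p 0.00172) and CYCS, which encodes cytochrome c, fell by 0.87 in SUM159 (adjusted p 5.23e-11).

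The factors of the mitochondrial membranes had 3 higher and 1 lower of 7 in A549 and 1 higher and 4 lower of 7 in SUM159, and the genes named are those of the channels VDAC2 (0.31 in A549, edgeR adjusted p 0.000182) and VDAC3 (-0.56 in SUM159, adjusted p 8.02e-09). Below the limit of 5 CPM, and picked after its values were seen, DIABLO, which encodes an antagonist of the IAP proteins, rose by 1.46 in A549 (adjusted p 8.36e-05). The death receptor list had 5 higher and 1 lower of 7 in A549 and 3 higher and 2 lower of 7 in SUM159. Its named genes are TNFSF10, which encodes the ligand TRAIL, in A549 (0.51, adjusted p 0.000514) and TNFRSF10A, 1 of the TRAIL receptor genes, in SUM159 (-0.56, adjusted p 1.32e-07). Of the genes that control MCL-1 turnover, HUWE1, which encodes a ubiquitin ligase for MCL-1, fell by 0.65 in A549 (adjusted p 2.11e-07) and fell by 0.57 in SUM159 (adjusted p 4.26e-05). That list had 1 higher and 2 lower of 4 in A549 and 0 higher and 2 lower of 4 in SUM159. Among the other BCL2 homologues and BH3 genes, 3 were higher and 3 lower of 7 in A549 and 1 higher and 5 lower of 6 in SUM159, and the genes named are BCL2L12 in A549 (-1.16, adjusted p 2.67e-06) and PMAIP1, which encodes the MCL-1 binding protein NOXA, in SUM159 (-1.06, adjusted p 1.91e-08). Below the limit in SUM159, and so outside the naming rule, BBC3, which encodes PUMA, rose there by 1.07 (adjusted p 0.000549). BBC3 also rose by 0.87 in A549 (adjusted p 0.00027), and the difference between the lines did not pass (0.27, adjusted p 0.554).

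For 3 of the genes the transcripts with the most similar pattern were looked up, as Pearson's r of log2 CPM over the 16 libraries after centring within each line, among the genes with at least 5 CPM in both lines. The points share library and scaling, and r is a description. MCL1 was most like KRT18 (r 0.969), PRKAR1B (0.917) and RPL12 (0.914) among 9652 genes. BCL2L1 was most like QSOX1 (0.967), CDA (0.959) and KCNAB2 (0.952). BCL2L11 was most like BMS1 (0.972), GGA2 (0.963) and ZIC2 (0.959).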

How the data were processed

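RNA was measured in 16 libraries, 2 for each of 4 treatments in A549 and SUM159. For every library the authors deposited a file of unnormalized, unpooled read counts by Ensembl identifier. According to the methods, stranded poly(A) libraries were sequenced as 75 bp pairs (NextSeq550), and after SeqPurge trimming the reads were mapped by HISAT2 to GRCh38. The HISAT2 version on record is 2.2.1, which the methods do not state. The submitters' processing notes also name HTSeq; its version, strand setting and annotation are not given in the sources used here. Rows that name no gene held 13.2% to 16.4% of each library and were left out. Of 58676 identifiers, 58207 matched GENCODE 44, which supplied symbols, coordinates and exon lengths.

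For each line, edgeR 4.0.16 (R 4.3.3) was run on its 8 libraries, with 1 coefficient per group, after filterByExpr (15744 genes in A549, 16080 in SUM159) and TMM scaling. Changes were tested with glmQLFTest and adjusted by Benjamini and Hochberg over all genes, with a threshold of 0.05. Differences between lines came from a fit of all 16 libraries (17764 genes), whose scaling is its own. CPM uses the scaling of each line and RPKM the common one, with the union of exons as length. A standard error is the change over the root of its F statistic. The fits were tested on simulated counts.

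The 10 genes, the pathway lists and the tests were chosen with earlier results of these data known. All 10 genes are reported, BCL2A1 by its counts only and values not past the threshold of the drug interaction by their range. Of each pathway list, the gene with the largest change among those past the threshold with a mean of at least 5 CPM is named for the combination in each line. For MCL1, BCL2L1 and BCL2L11 the 3 genes with the highest r are named (log2 CPM with a prior count of 2). Alternatives were other scalings (RLE, total counts), no filter, a mean of at least 1 CPM, DESeq2 1.42.0, limma-voom (limma 3.58.1), only the groups compared, all 16 libraries, the replicate number as a block, stricter thresholds and leaving out each library. A group left with 1 library is assumed to vary like the others. Promoter sequences are from RefSeq.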

Additional observations from a re-analysis of the deposited data

Results flagged for a closer look

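A difference between the responses of the lines, tested as an interaction in edgeR and given as SUM159 minus A549 on the log2 scale, was found for 8 results. With palbociclib, MCL1 differed by -0.37 (0.34 in A549 and -0.13 in SUM159 within each line), BCL2L1 by -0.33 (0.52 and 0.10), BCL2L11 by -0.62 (-0.64 and -1.36) and BCL2L2 by 0.34 (-0.24 and 0.01). With the combination, MCL1 differed by -0.30 (0.11 and -0.26), BCL2L1 by -0.24 (0.39 and 0.08), BAK1 by -0.30 (0.21 and -0.16) and BCL2L2 by 0.28 (-0.47 and -0.25). The 4 results of MCL1 and BCL2L1 passed in each of 21 other fits and at an adjusted p under 0.01, but none reached a minimum log2 difference of 0.5. Those of BCL2L2, BCL2L11 and BAK1 were lost without single libraries, with adjusted p-values of 0.672, 0.816, 0.174 and 0.0878 at the weakest removal. In the fit of 16 libraries the median difference of all genes was 0.08 with palbociclib and 0.10 with the combination. RLE scaling moved these medians by -0.10 and -0.085. With it both BCL2L2 calls were lost, at 0.25 for palbociclib (edgeR adjusted p 0.0918) and 0.20 for the combination (adjusted p 0.136). The other results kept their calls under RLE scaling, and how far the scaling sets their sizes was not tested. Values within each line come from fits with their own scaling, so their difference need not equal the interaction. The lines also differ in their culture medium, whose part in the differences cannot be told apart from that of the line.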

How the results depend on the processing

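Over 72 called changes of single genes, no alternative turned a sign. Of 1284 values, 1142 kept the call and 142 lost it, 90 with 1 library left out and 52 in the other settings. Of those 52, DESeq2 lost 21 and total counts 9. Stricter thresholds are not among these values and are given as counts. Among 20 changes against untreated cells that were not called, 12 of 337 values passed under an alternative and 18 turned sign. With total counts the turned values were 0.024 for BID (palbociclib) and 0.024 for BCL2L2 (indisulam) in A549, and 0.023 for BAD with palbociclib and 0.020 with the combination in SUM159. With DESeq2 it was -0.014 for BID (combination, SUM159). With 1 library left out the changes that turned ranged from -0.096 to 0.26 for BAD, -0.086 to 0.0079 for BID and -0.018 to 0.20 for BAK1 (palbociclib, A549), from -0.070 to 0.079 for BCL2L2 (indisulam, A549), and in SUM159 from -0.014 to 0.101 for BAK1 and -0.012 to 0.041 for BCL2L2 (palbociclib), -0.20 to 0.0025 for BCL2 (indisulam) and -0.039 to 0.048 for BID (combination).

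Of the counts of genes called, these moved by over 1.5 times, and the cause was not tested unless the setting calls fewer by construction. With a minimum log2 change of 0.5, the counts in A549 were 3 (palbociclib), 1 (indisulam), 3 (combination), 2 (combination against palbociclib) and 2 (against indisulam), in SUM159 they were 3, 1, 3, 2 and 3, and 0 for the departure from additivity. Between lines they were 1 for palbociclib and 0 for the combination. At an adjusted p under 0.01 they were 4 (combination, A549), 3 (combination against palbociclib, A549), 0 (departure, SUM159), and 2 and 2 between lines for palbociclib and the combination. With DESeq2 they were 3, 4 and 2 in A549 for palbociclib, the combination and the combination against palbociclib, and between lines 2 for palbociclib and 1 for indisulam. With no filter the departure in SUM159 gave 0. With 1 library left out the counts ranged in A549 from 3 to 5 (palbociclib), 0 to 5 (indisulam), 4 to 8 (combination), 3 to 5 (combination against palbociclib) and 0 to 1 (departure). In SUM159 they ranged from 3 to 6 (combination against palbociclib) and 0 to 1 (departure), and between lines from 2 to 4 (palbociclib), 0 to 2 (indisulam) and 2 to 4 (combination). The lowest counts for indisulam (0), palbociclib (3) and the combination (4) in A549 came without untreated replicate 1, and 5 for indisulam came without either combination library.

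Same-numbered libraries did not deviate together (r across genes -0.11 to 0.11), so the numbers were not taken as pairs. With the replicate block, 70 of the 72 calls were kept, and the counts were the same except for 6 in place of 7 (combination, SUM159) and 7 in place of 8 between the untreated lines. The calls lost were BCL2L1 with the combination in SUM159 (0.08, adjusted p 0.0582 from edgeR) and BCL2L2 between the lines (0.17, adjusted p 0.0696).

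Total counts in place of TMM raised the median of all genes by 0.15 for the combination and by 0.11 for palbociclib in SUM159, so changes there under about 0.15 rest on the scaling. Under the exon length of the longest transcript, MCL1 came above BCL2L1 in untreated A549 (ratio 1.03 and 1.07), and the order of the groups was kept. With that length BID came above BAK1 in untreated A549 (16.1 and 15.1 against 10.8 and 10.9 RPKM). In untreated SUM159, BID came above BAD (22.6 and 23.0 against 20.55 and 19.95 RPKM) and BCL2 above BCL2L11 (1.083 and 1.125 against 1.009 and 1.017 RPKM). BMF in A549 is limited by its depth.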
